A study of Mus musculus with 20 samples.

Results

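The collagen genes were examined in bulk RNA sequencing of the heart apex from 20 mice. Collagen genes were taken as every gene whose symbol follows the pattern Col, number, a, number, which gave 45 entries with 44 symbols among 25308 genes. They were divided by the structure of their product into 11 fibrillar collagens, 7 basement membrane collagens, 9 FACIT collagens (fibril-associated collagens with interrupted triple helices) and 18 others. Of these entries, 34 had enough reads to be tested, namely 8 fibrillar, 6 basement membrane, 6 FACIT and 14 other collagens, among 14477 genes tested in all. The other 11 entries were Col2a1, Col11a1, Col24a1, Col9a1, Col9a2, Col19a1, Col6a4, Col10a1, Col17a1, Col26a1 and a second gene entry for Col4a6. They fell under the filter on low counts, so a difference in them was not detectable at this depth.

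λS-DH mice carry the cDNA of a human lambda light chain, λS, at the Ig kappa locus. Their background is DH-LMP2A (DH), in which plasma cells are increased and Ig heavy chains are missing. AL mice (n = 9, AL1-9) were λS-DH mice with cardiac amyloid after intravenous injection of recombinant λS variable domain, as fibrils or in soluble form; which form each mouse received was not given in the sources used here. LS mice (n = 4, LS1-4) were λS-DH mice that had not been induced and had no deposits, and Ctrl mice (n = 7, Ctrl1-7) were age-matched DH mice, which make polyclonal mouse kappa light chains and lack the human gene. AL and LS mice therefore shared the transgene and differed in induction and deposits together, while AL and Ctrl mice differed in the transgene as well. The age of each mouse was not given in the sources used here. The paper gives ranges of age only, and states that adult mice of both sexes were used.

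The first sequencing run held AL1-7, LS1-4 and Ctrl1-4, and the second AL8, AL9 and Ctrl5-7. Total counts per mouse ranged from 7867642 to 62668146, with at least 43993277 in the first run and at most 11794615 in the second. A count of 3, taken as the floor of detection, corresponded to 0.0474 CPM (counts scaled to a library total of 1000000 by the TMM method) where the total was highest and 0.356 CPM where it was lowest. Such floors cover counting error only. The test between groups was edgeR's quasi-likelihood test, fitted on group and sequencing run. A gene was called at a Benjamini-Hochberg adjusted p (FDR) under 0.05 with an absolute log2 fold change (log2FC) of at least 0.58. Heart muscle markers summed to 53721 CPM in AL9, the lowest mouse of the second run. The other mice of that run had 67675 CPM (AL8) and 67652.5, 63045 and 63400 CPM (Ctrl5-7). In the first run the sums were 39728 to 49857 CPM in AL mice and 49395 to 57901 CPM in LS and Ctrl mice. In bulk tissue, fewer cells of a type cannot be told apart from less RNA per cell.

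Collagens are proteins in which 3 chains wind into a triple helix, and apart from the transmembrane collagens they are secreted. Fibrillar collagens are cut at their ends and assemble into the tensile fibres of the heart's interstitium, where fibroblasts are their main source. Basement membrane collagens form the sheet around cardiomyocytes and capillaries, FACIT collagens sit on the surface of fibrils, and beaded filament collagens link fibrils to cells. The type IV chains are encoded by pairs of genes that lie head to head. In GRCm38 the starts of Col4a1 and Col4a2 were 21 bp apart on chromosome 8, those of Col4a3 and Col4a4 72 bp apart on chromosome 1, and those of Col4a5 and Col4a6 1309 bp apart on chromosome X.

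The sequences just upstream of 5 collagen starts are shown because the results turn on these genes: both highest fibrillar chains with a sequence in the table (Col3a1 and Col1a2), an abundant chain that follows its partners closely (Col6a1), and called members (Col20a1 and Col27a1). Each is the 200 bases before the start that RefSeq gives on GRCm38.p6, written 5′ to 3′ along the gene, with all matches to 4 short motifs on either strand in capitals. The regions are chr6:4505418-4505617 (plus strand) for Col1a2, chr1:45311338-45311537 (plus) for Col3a1, chr10:76726045-76726244 (minus) for Col6a1, chr2:180986335-180986534 (plus) for Col20a1 and chr4:63215212-63215411 (plus) for Col27a1. The GENCODE annotation, used here for gene positions, starts Col1a2 at 4504814 and Col27a1 at 63214004. By that annotation both of these windows lie inside the gene. Its start of Col6a1, at 76726168, falls within the printed window. For Col3a1 and Col20a1 both sources give the same start.
Col1a2: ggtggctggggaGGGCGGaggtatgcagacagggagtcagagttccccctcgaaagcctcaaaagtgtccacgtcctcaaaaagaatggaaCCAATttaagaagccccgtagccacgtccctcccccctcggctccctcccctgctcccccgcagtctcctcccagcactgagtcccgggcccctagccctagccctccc
Col3a1: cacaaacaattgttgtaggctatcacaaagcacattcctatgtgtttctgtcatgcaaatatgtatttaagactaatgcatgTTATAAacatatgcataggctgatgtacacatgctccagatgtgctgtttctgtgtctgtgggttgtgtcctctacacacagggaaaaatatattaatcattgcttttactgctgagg
Col6a1: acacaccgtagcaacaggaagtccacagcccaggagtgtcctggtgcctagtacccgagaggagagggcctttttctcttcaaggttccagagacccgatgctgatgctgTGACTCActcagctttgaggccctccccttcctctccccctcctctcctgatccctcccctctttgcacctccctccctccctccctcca
Col20a1: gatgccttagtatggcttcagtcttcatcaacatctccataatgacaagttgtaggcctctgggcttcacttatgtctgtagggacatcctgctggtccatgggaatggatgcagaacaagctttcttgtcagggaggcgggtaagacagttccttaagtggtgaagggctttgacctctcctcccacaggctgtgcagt
Col27a1: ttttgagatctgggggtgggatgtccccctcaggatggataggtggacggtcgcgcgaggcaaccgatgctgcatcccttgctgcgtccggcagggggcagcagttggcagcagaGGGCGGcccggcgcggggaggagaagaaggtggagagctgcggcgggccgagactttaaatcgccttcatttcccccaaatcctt
The capitals mark GGGCGG in Col1a2, 188 bases before the start, and CCAAT, 109 bases before it. They mark a TTATAA that holds overlapping matches to TATAA on the 2 strands in Col3a1, 118 and 117 bases before it. They mark TGACTCA in Col6a1, 90 bases before the start, and GGGCGG in Col27a1, 85 bases before it. The Col20a1 sequence held no match to any of the 4 motifs.

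The same 4 motifs were searched on both strands over 250 bases before the start of every gene in that table, in which 35 of the 44 collagen symbols had an entry. A collagen was counted where any of its windows matched (38 windows over 35 collagens), while the share beside it is counted per window. CCAAT was found in 13 of 35 collagens (37.1%) and in 33.8% of all 32851 windows, and TATAA in 7 collagens (20%) and 22.8% of all windows. GGGCGG was found in 21 collagens (60%) and 32.7% of all windows, and TGACTCA in 1 collagen (2.86%), Col6a1, and 4.46% of all windows. A match to letters is a description of the sequence and does not show that a factor binds there.

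Levels between genes were compared as CPM per kb of exon, where the length covers every annotated exon of a gene. Comparisons between genes therefore depend on the annotation. The median over the 20 mice was 48 CPM per kb for Col4a1 and 36.7 for Col4a2, the chains of the common type IV network, so that basement membrane chains led the collagens of the apex. They were followed by Col6a1 with 19.3, Col3a1 with 18, Col15a1 with 14.2, Col6a2 with 10.5 and Col1a1 with 8.90 CPM per kb. At the other end lay Col20a1 with 0.27, Col9a3 with 0.06 and Col25a1 with 0.02 CPM per kb.

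Summed over its genes, the fibrillar class had 506, 448, 515, 429, 340, 522, 378, 206 and 4508 CPM in AL1 to AL9. The sums were 429, 443, 635 and 457 CPM in LS1 to LS4, and 609, 408, 543, 307, 274, 373 and 231 CPM in Ctrl1 to Ctrl7. AL9 stood far above all other mice, and the other AL mice lay within or below the range of LS and Ctrl mice. The basement membrane class had 1595 CPM in AL9 and 447 to 784 CPM in the other AL mice, against 651 to 760 CPM in LS and 531 to 876 CPM in Ctrl mice. The FACIT class had 173 CPM in AL9, 20.4 to 57.9 CPM in the other AL mice, 29.1 to 55.3 CPM in LS and 22.4 to 66.2 CPM in Ctrl mice. The other collagens had 1023 CPM in AL9, 151 to 404 CPM in the other AL mice, 370 to 461 CPM in LS and 179 to 483 CPM in Ctrl mice. In all 4 classes AL9 was the highest of 20 mice, and without it the 3 groups overlapped.

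**Figure D1:**
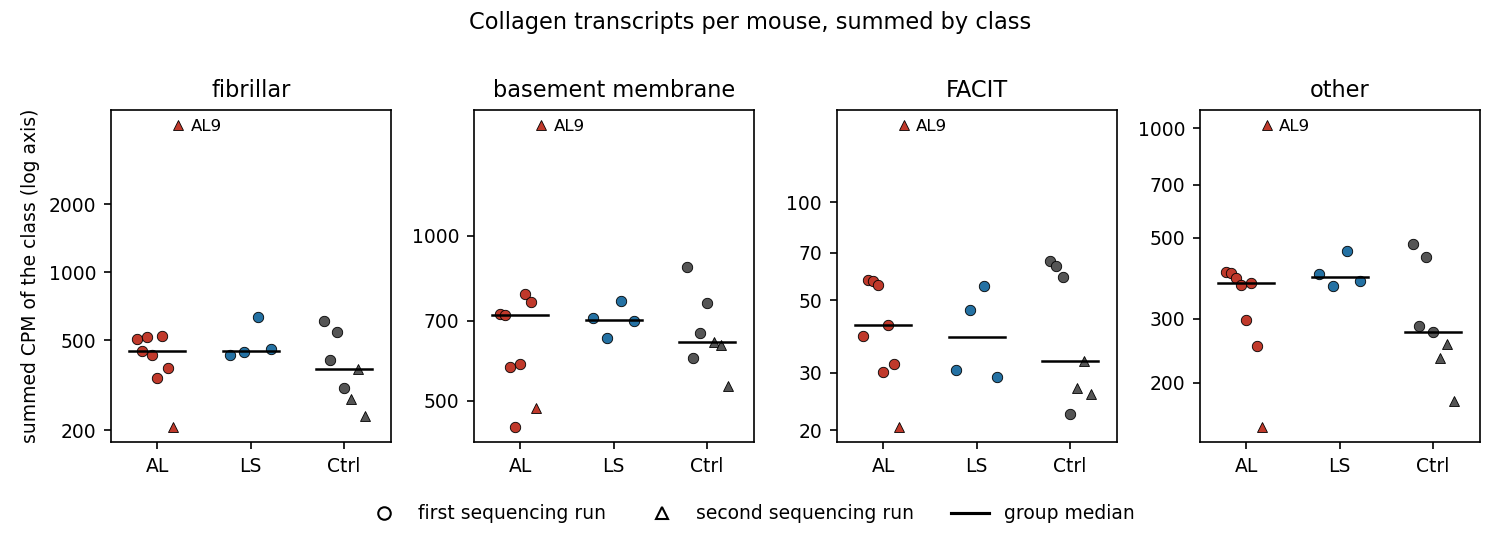
Summed CPM (log axes) of the collagens of each class in each mouse by group, where each point is 1 mouse, circles are the first and triangles the second sequencing run, and lines are group medians. AL9, at 4508 CPM in the fibrillar class, lies above every other mouse in all 4 classes.

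The make-up of collagen RNA in AL9 differed as well. Fibrillar chains were 61.8% of collagen CPM in AL9 and 23.9% to 33.5% in the other AL mice. Basement membrane chains were 21.8% in AL9 and 34.3% to 56.2% in the other AL mice. AL9 was the highest of the 20 mice for 24 of the 34 tested collagens (70.6%), against 2883 of all 14477 tested genes (19.9%). AL8, the other AL mouse of the second run, was the lowest mouse for 10 of the 34 collagens and for 1666 of all tested genes.

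The genes most raised in AL9 were those of the fibrils. Col1a1, the major chain of type I collagen, had 694 CPM in AL9 and 83.8 CPM in Ctrl1, the next mouse, a ratio of 8.29. Col3a1, the single chain of type III collagen, had 2465 CPM against 333 CPM in LS3, a ratio of 7.41. Col1a2, the second chain of type I, had 713 CPM against 139 CPM in AL1, a ratio of 5.13. Chains of type V, which nucleate fibrils, followed with ratios of 5.59 for Col5a2, 4.52 for Col5a1 and 2.41 for Col5a3 against the next mouse. Outside the fibrillar class the ratio was 7.80 for Col6a5, 5.50 for Col12a1, a FACIT of dense tissue, 4.66 for Col18a1, the source of endostatin, and 4.34 for Col16a1. It was below 2 for the abundant basement membrane chains, at 1.93 for Col4a1 and 1.86 for Col4a2. AL9 was the lowest of the 20 mice for Col4a3 (1.55 CPM) and Col4a4 (3.7 CPM), chains of the specialised type IV network. It was not the highest mouse for Col20a1, Col9a3, Col11a2, Col6a6 or Col25a1, which include all called members other than Col27a1.

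**Figure D2:**
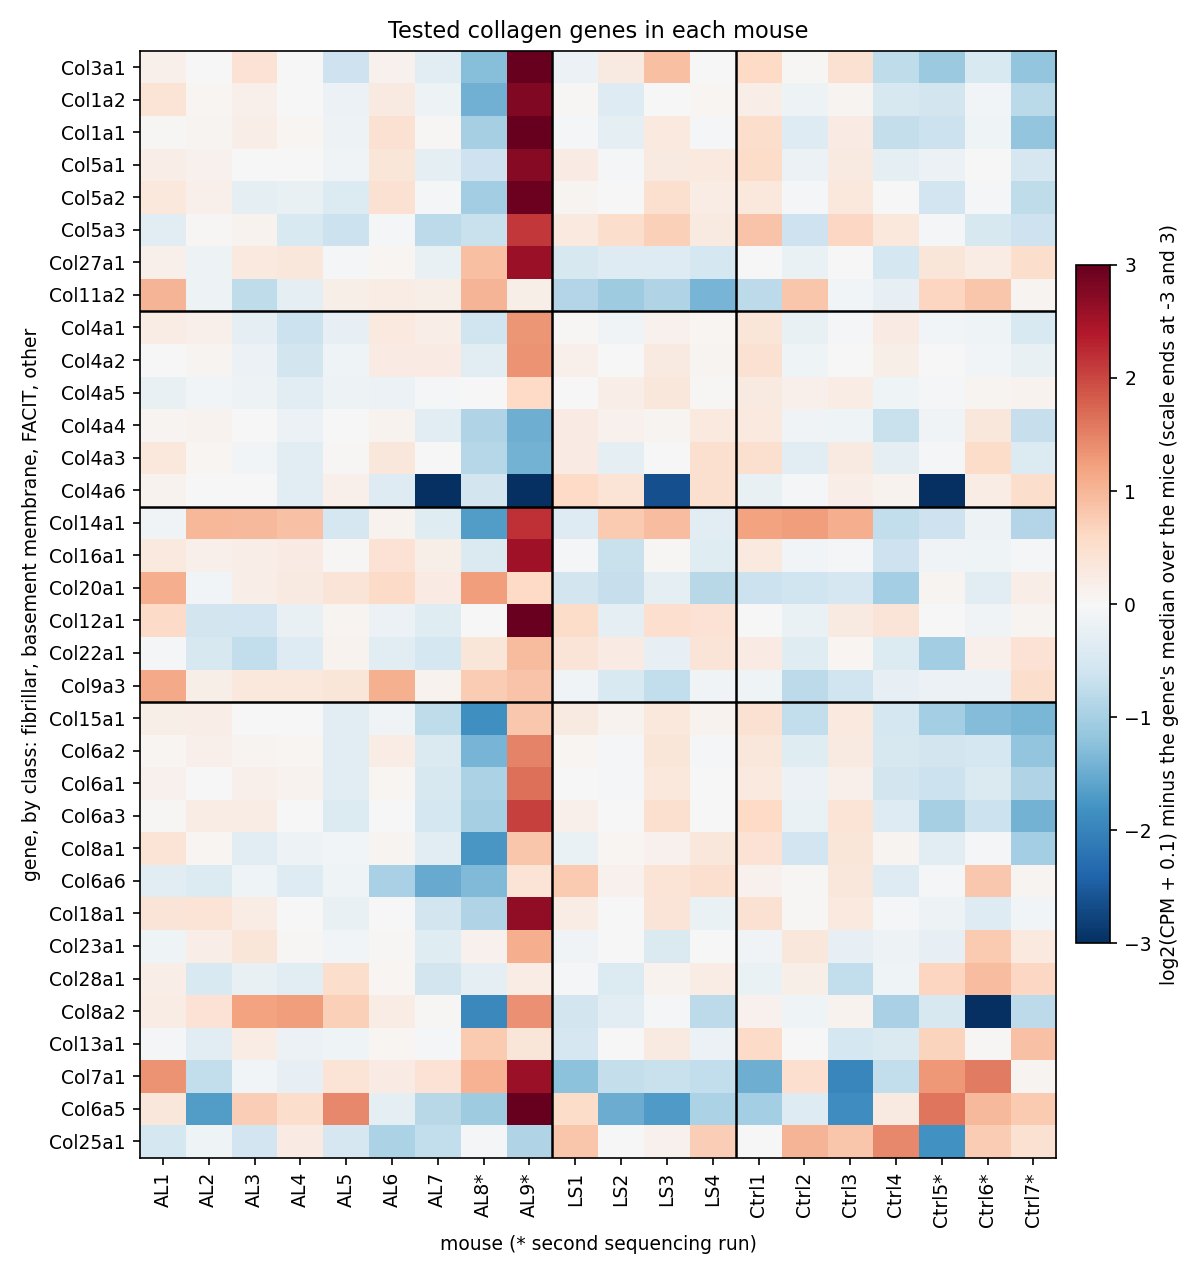
Log2 CPM (with 0.1 added) of the 34 tested collagens in the 20 mice, each gene relative to its median over all mice, with genes ordered by class and the colour scale ending at 3 on either side. The column of AL9 is high across most fibrillar chains.

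Marker lists of other cells moved with AL9. The 11 genes listed for activated fibroblasts summed to 459 CPM in AL9 and to 84.9 to 299 CPM in the other AL mice, with Postn at 154, Cilp at 95.9, Tnc at 42.8 and Comp at 14.9 CPM in AL9. The 9 genes listed for resting fibroblasts summed to 1218 CPM in AL9 and to 600 to 2893 CPM in the other AL mice. The 6 epicardial genes summed to 246 CPM in AL9 and to 7.24 to 67.2 CPM in all other mice, with Msln at 116 and Upk3b at 52.8 CPM in AL9. The 6 macrophage genes summed to 313 CPM in AL9 and to 63.8 to 258 CPM in the other mice, and the 8 endothelial genes to 624 CPM, the lowest of the 20 mice. The TMM factor of AL9 was 1.30, against 0.863 to 1.10 in the other mice. Their part in the collagen values of AL9 was not tested.

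The question of whether hearts with amyloid differed in collagen expression from hearts of control mice was addressed by AL against Ctrl. Of the 34 tested collagens, Col20a1, Col9a3 and Col27a1 were called higher and Col25a1 was called lower, 4 in all. Of all tested genes 7.81% were called, 4.1% higher and 3.71% lower. By class, the calls were 1 of 8 fibrillar, 0 of 6 basement membrane, 2 of 6 FACIT and 1 of 14 other collagens. The median log2FC was 0.66 over the fibrillar, 0.62 over the FACIT, 0.40 over the other and -0.17 over the basement membrane collagens, beside 0.01 over all tested genes. Against LS, Col20a1, Col9a3 and Col11a2 were called higher and Col6a6 lower, where 8.9% of all tested genes were called, 5.86% higher and 3.03% lower. Both comparisons use the same 9 AL mice, so they are given side by side and not as independent results.

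Col20a1 (ENSMUSG00000016356, chromosome 2, 180986535 to 181018363 on GRCm38) encodes a FACIT chain. AL mice had 1.31 to 3.44 CPM (median 1.86), LS mice 0.92, 0.82, 1.12 and 0.73 CPM, and Ctrl mice 0.63 to 1.61 CPM (median 0.95). All AL mice lay above all LS mice, and Ctrl5 and Ctrl7 of the second run were the Ctrl mice that reached the AL range. The log2FC was 1.13 (SE 0.191, FDR = 0.000508) against Ctrl and 1.06 (SE 0.224, FDR = 0.00294) against LS mice.

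Col9a3 (ENSMUSG00000027570, chromosome 2, 180597790 to 180622189) encodes a chain of type IX collagen, the FACIT of cartilage, whose partner genes Col9a1 and Col9a2 were under the filter. It had few reads, between 4 and 41 counts in each AL mouse. AL mice had 0.27 to 0.65 CPM (median 0.33), LS mice 0.21, 0.15, 0.10 and 0.21 CPM, and Ctrl mice 0.10 to 0.38 CPM (median 0.20). Ctrl7 was the single Ctrl mouse within the AL range, and no LS mouse was. The log2FC was 1.25 (SE 0.303, FDR = 0.00597) against Ctrl and 1.19 (SE 0.343, FDR = 0.018) against LS mice, and the latter call was lost without LS2 (FDR = 0.0587) or LS3 (FDR = 0.0709). Col9a3 overlaps Tcfl5 on the opposite strand, and the reads were assigned by strand.

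Col20a1 and Col9a3 were also the 2 collagens whose values in every AL mouse of the first run lay above those of all 8 LS and Ctrl mice of that run, where 3.01% of tested genes did so. Within each run taken by itself, the same genes kept all AL mice above all control mice in CPM, where 0.96% of tested genes did. For Col9a3 the second run rested on few reads, with 4 counts in AL8 and 6 in AL9 against 2, 2 and 5 in Ctrl5-7. Ctrl7 thus had more reads than AL8 and lay below it only after scaling for depth. No collagen lay below in this way, where 6.41% of genes did in the first run and 3.97% within each run. Both genes lie on chromosome 2, 364.345 kb apart, with 6 tested genes between them. Of those 6, Nkain4 was called (log2FC 1.32, FDR = 0.0134 against Ctrl and 1.45, FDR = 0.0206 against LS). This stretch was looked at after the values were seen.

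Col27a1 (ENSMUSG00000045672, chromosome 4, 63214004 to 63334991) encodes a fibrillar collagen of cartilage. AL mice had 3.74 to 27.1 CPM (median 4.85), LS mice 3.14, 3.34, 3.32 and 3.02 CPM, and Ctrl mice 3.03 to 6.38 CPM (median 4.44). AL9 held the highest value, AL8 with 8.30 CPM the next, and the other AL mice lay within the Ctrl range while all AL mice lay above all LS mice. The log2FC was 0.67 (SE 0.224, FDR = 0.0339) against Ctrl and 0.69 (SE 0.279, FDR = 0.0786) against LS mice. Without AL9 it was 0.31 (FDR = 0.0537) against Ctrl, and the call was also lost without AL4, Ctrl4, Ctrl5, Ctrl6 or Ctrl7, with FDR from 0.0513 to 0.069 over these 6 mice.

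Col25a1 (ENSMUSG00000058897, chromosome 3, 130131501 to 130599877) encodes a transmembrane collagen also known from the amyloid plaques of the brain. AL mice had 0.08 to 0.32 CPM (median 0.14), LS mice 0.52, 0.25, 0.29 and 0.48 CPM, and Ctrl mice 0 to 0.85 CPM (median 0.50). AL mice were low as a group, AL4 overlapped the lower LS and Ctrl mice, and Ctrl5 had 0 counts, at a floor of 3 counts. The log2FC was -1.62 (SE 0.411, FDR = 0.00784) against Ctrl and -1.15 (SE 0.452, FDR = 0.0712) against LS mice. AL mice had 1 to 17 counts each.

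Col11a2 (ENSMUSG00000024330, chromosome 17, 34039437 to 34066685) encodes a fibrillar chain of cartilage. AL mice had 1.25 to 4.55 CPM (median 2.48), LS mice 1.13, 0.99, 1.12 and 0.77 CPM, and Ctrl mice 1.22 to 3.99 CPM (median 2.31). All AL and all Ctrl mice lay above all LS mice, and AL and Ctrl mice overlapped throughout. The log2FC was 1.28 (SE 0.332, FDR = 0.0101) against LS and 0.10 (SE 0.265, FDR = 0.82) against Ctrl mice.

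Col6a6 (ENSMUSG00000043719, chromosome 9, 105687809 to 105828160) encodes a chain of the beaded filament collagen VI. AL mice had 3.56 to 13.8 CPM (median 7.87), LS mice 17.8, 11.2, 13.7 and 14.3 CPM, and Ctrl mice 7.83 to 18.2 CPM (median 10.8). AL9 was the highest AL mouse, and the other 8 lay below every LS mouse. The log2FC was -0.96 (SE 0.258, FDR = 0.0124) against LS and -0.54 (SE 0.227, FDR = 0.0866) against Ctrl mice.

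**Figure D3:**
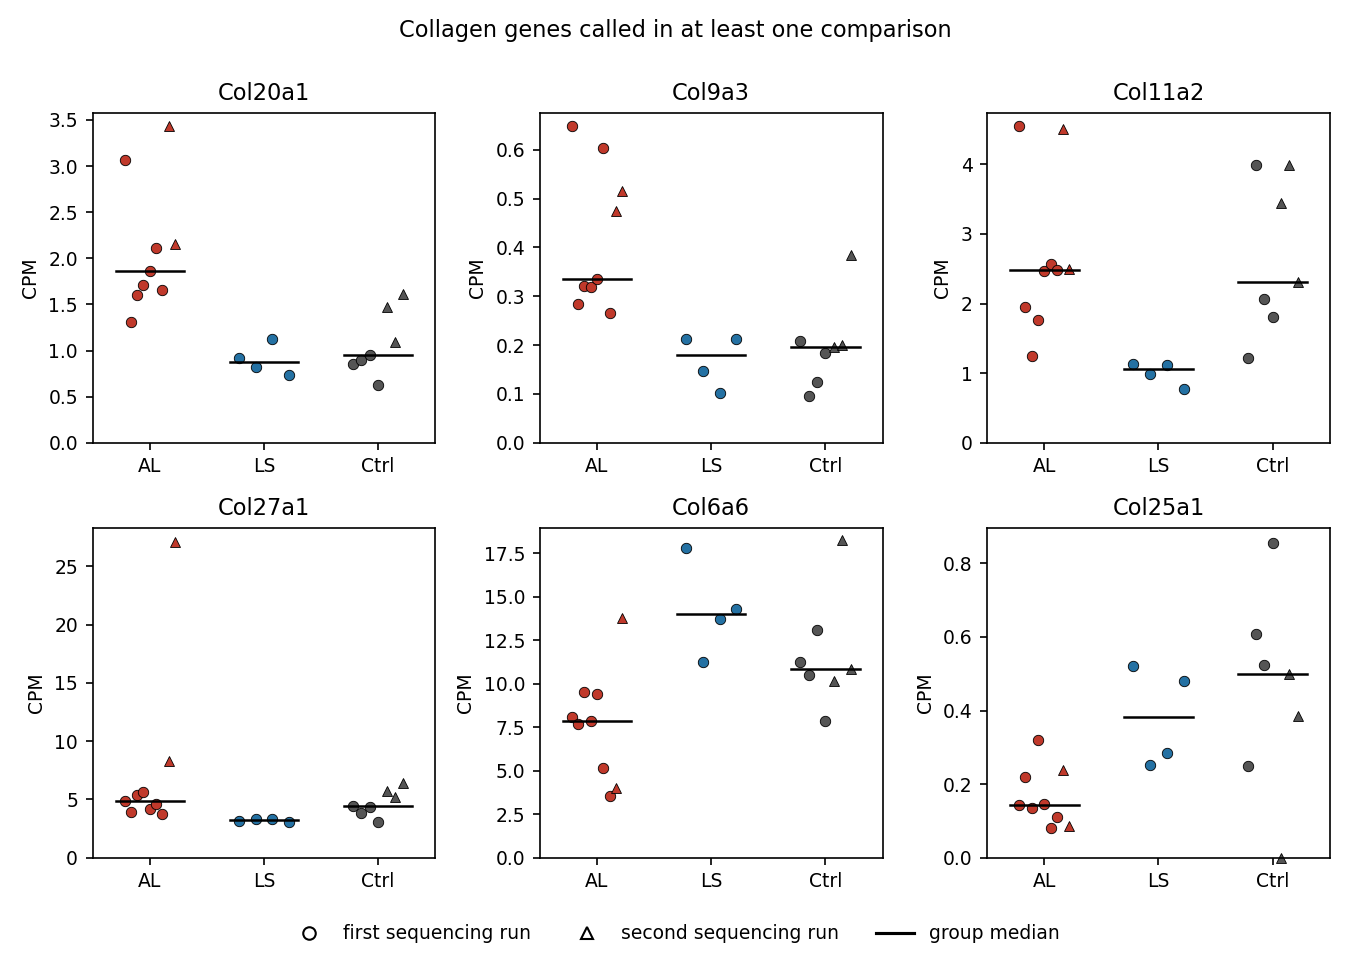
CPM (linear axes from 0) in each mouse of the 6 collagens called in at least 1 comparison, where each point is 1 mouse, circles are the first and triangles the second sequencing run, and lines are group medians. Col20a1 and Col9a3 are higher in AL mice of both runs, for Col9a3 on few reads in the second, while Col27a1 is led by AL9 (27.1 CPM) and AL8 (8.30 CPM).

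Other lists moved in the same comparisons. Against Ctrl, 5 of 9 tested activated fibroblast genes, 5 of 6 epicardial genes and 2 of 2 tested atrial genes were called higher, and 10 of 10 liver genes were called lower. Against LS, 5 of 6 epicardial genes and 1 of 9 activated fibroblast genes were called higher and 7 of 10 liver genes lower. When AL9 was left out, 0 of 9 activated fibroblast, 4 of 6 epicardial and 2 of 2 atrial genes were called higher against Ctrl. The 10 liver genes were all still called lower against Ctrl. Liver genes summed to 164 to 310 CPM in Ctrl1, Ctrl3, Ctrl4, LS1 and LS3, and to 3 to 40.5 CPM in AL mice. Without these 5 mice, the control mice left were LS2, LS4, Ctrl2 and Ctrl5-7, so the groups were smaller. In that fit 3.39% of all genes were called against Ctrl and 3.19% against LS. Col20a1 was the collagen still called (log2FC 1.05, FDR = 0.0379 and 1.30, FDR = 0.0341). The log2FC values of the other called members were then 1.43 for Col9a3 (FDR = 0.0846), 1.02 for Col27a1 (FDR = 0.0585) and -1.54 for Col25a1 (FDR = 0.117) against Ctrl. Against LS they were 1.09 for Col9a3 (FDR = 0.179), 1.54 for Col11a2 (FDR = 0.0572) and -0.79 for Col6a6 (FDR = 0.199).

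The major fibril chains were not called in the fit on group and run. Col1a1 had 29 to 694 CPM in AL mice (median 60.7), 57.2, 47.5, 71.3 and 56.5 CPM in LS mice and 25.6 to 83.8 CPM in Ctrl mice (median 44.9). Col1a2 had 38.5 to 713 CPM in AL (median 108), 106, 80.5, 104 and 109 CPM in LS and 59.9 to 120 CPM in Ctrl mice (median 93.5). Col3a1 had 72.5 to 2465 CPM in AL (median 175), 157, 214, 333 and 178 CPM in LS and 77.7 to 268 CPM in Ctrl mice (median 128). For each of the 3 genes AL9 was the highest mouse, AL8 the lowest AL mouse, and the rest of the groups overlapped. Against Ctrl the log2FC was 1.04 for Col1a1 (SE 0.506, FDR = 0.134), 0.83 for Col1a2 (SE 0.398, FDR = 0.13) and 0.95 for Col3a1 (SE 0.61, FDR = 0.265). Without AL8, Col1a2 was called (log2FC 0.95, FDR = 0.0398). With the mean log2 CPM of the liver genes as a covariate all 3 were called, with log2FC of 2.18 for Col1a1 (FDR = 0.0163), 1.54 for Col1a2 (FDR = 0.0348) and 2.21 for Col3a1 (FDR = 0.0427). Against LS the log2FC was 0.53 for Col1a1 (FDR = 0.572), 0.44 for Col1a2 (FDR = 0.552) and 0.19 for Col3a1 (FDR = 0.88).

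Col4a1 had 230 to 893 CPM in AL mice (median 398), 367, 335, 390 and 371 CPM in LS and 259 to 462 CPM in Ctrl mice (median 337). Col4a2 had 164 to 623 CPM in AL (median 242), 272, 243, 293 and 257 CPM in LS and 207 to 335 CPM in Ctrl mice (median 241). With AL9 set aside the highest mouse was Ctrl1 for both genes, and the groups overlapped. Their log2FC against Ctrl was 0.20 (SE 0.219, FDR = 0.531) and 0.16 (SE 0.2, FDR = 0.597), and against LS 0.08 (FDR = 0.853) and -0.03 (FDR = 0.947).

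Among FACIT collagens, Col16a1 had 7.82 to 61.6 CPM in AL mice (median 12.2), 10.3, 6.56, 10.7 and 8.09 CPM in LS and 6.75 to 12.9 CPM in Ctrl mice (median 9.87). Its log2FC was 0.77 (SE 0.296, FDR = 0.0607) against Ctrl and 0.65 (FDR = 0.209) against LS mice. AL9 stood apart, and the other AL mice reached at most 14.2 CPM, near the highest control. Col16a1 was called against Ctrl without AL8 (0.89, FDR = 0.0165) or without Ctrl1 (0.93, FDR = 0.0348). Col14a1 had 6.64 to 97.9 CPM in AL (median 23.3), 16.3, 37.4, 41 and 17.3 CPM in LS and 11.6 to 51.1 CPM in Ctrl mice (median 19.3), with a log2FC of 0.19 (SE 0.466, FDR = 0.801) and 0.31 (FDR = 0.739). Here mice of each group fell on a high and a low level.

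Among the beaded filament chains, Col6a1 had 43.5 to 264 CPM in AL (median 87.8), 83.7, 82.9, 104 and 84.9 CPM in LS and 45 to 103 CPM in Ctrl mice (median 62.4). Col6a2 had 33.5 to 247 CPM in AL (median 92.0), 91.3, 84.0, 112 and 84.3 CPM in LS and 38.5 to 111 CPM in Ctrl mice (median 62.9). AL9 apart, AL mice lay within the range of the other groups or, for AL8, below it. The log2FC against Ctrl was 0.48 (SE 0.281, FDR = 0.218) for Col6a1 and 0.44 (SE 0.294, FDR = 0.28) for Col6a2, and against LS 0.08 for each (FDR = 0.889 and 0.895).

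The multiplexins Col15a1 and Col18a1 are found at vessel walls. Col15a1 had 25.3 to 158 CPM in AL (median 88.9), 109, 96.3, 111 and 97.1 CPM in LS and 34.5 to 124 CPM in Ctrl mice (median 54.1). Col18a1 had 4.86 to 58.6 CPM in AL (median 9.16), 10.8, 9.02, 12 and 7.90 CPM in LS and 6.97 to 12.6 CPM in Ctrl mice (median 8.79). AL9 led both, and the groups overlapped. The log2FC against Ctrl was 0.35 (SE 0.289, FDR = 0.385) and 0.51 (SE 0.364, FDR = 0.319), and against LS -0.13 (FDR = 0.823) and 0.22 (FDR = 0.765).

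Col8a1 and Col8a2 encode the short chains of a network made by endothelium and muscle of vessels. Col8a1 had 9.25 to 55.9 CPM in AL (median 29.6), 27.3, 32.7, 34.1 and 39.4 CPM in LS and 15.3 to 42.4 CPM in Ctrl mice (median 30.1). Col8a2 had 0.12 to 2.07 CPM in AL (median 1.03), 0.47, 0.57, 0.71 and 0.39 CPM in LS and 0 to 0.81 CPM in Ctrl mice (median 0.49). For Col8a2, AL8 with 1 count was the AL mouse below the LS mice, and all other AL mice lay above them. The log2FC of Col8a2 was 1.14 (SE 0.419, FDR = 0.0513) against Ctrl and 1.26 (SE 0.498, FDR = 0.0729) against LS mice, past the fold but not the FDR threshold, while that of Col8a1 was 0.04 (SE 0.251, FDR = 0.925) and -0.04 (FDR = 0.936). Col8a2 was called against Ctrl without AL7 (FDR = 0.0466) or AL8 (FDR = 0.0184).

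Col7a1, the anchoring fibril chain, had 0.31 to 3.96 CPM in AL (median 0.80), 0.19, 0.32, 0.33 and 0.31 CPM in LS and 0.07 to 1.89 CPM in Ctrl mice (median 0.61). Ctrl5 and Ctrl6 of the second run lay above most AL mice. Its log2FC was 1.06 (SE 0.438, FDR = 0.0799) against Ctrl and 1.37 (SE 0.54, FDR = 0.072) against LS mice, and it was called against Ctrl without Ctrl2 (1.64, FDR = 0.0132). Col28a1, which is expressed in peripheral nerve, had 0.75 to 1.72 CPM in AL (median 0.98), 1.11, 0.84, 1.24 and 1.37 CPM in LS and 0.65 to 2.29 CPM in Ctrl mice (median 1.31), with log2FC of -0.12 (FDR = 0.739) and -0.14 (FDR = 0.734). The groups overlapped fully for Col28a1. Of the transmembrane collagens, Col13a1 had 0.44 to 1.07 CPM in AL (median 0.55), 0.38, 0.59, 0.71 and 0.50 CPM in LS and 0.37 to 1.15 CPM in Ctrl mice (median 0.60). Its log2FC was -0.03 (FDR = 0.944) against Ctrl and 0.02 (FDR = 0.963) against LS mice. Col23a1 had 1.73 to 4.91 CPM in AL (median 2.30), 2.10, 2.23, 1.63 and 2.27 CPM in LS and 1.87 to 3.98 CPM in Ctrl mice (median 2.10), with log2FC of 0.14 (FDR = 0.589) and 0.19 (FDR = 0.538). Neither separated the groups.

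Between LS and Ctrl mice, which differ in the transgene without deposits, 0 of 34 collagens were called by edgeR, where 0.0207% of all tested genes were. At an unadjusted p under 0.05 there was 1 collagen, Col11a2 (log2FC -1.18, FDR = 0.68), beside 860 of all 14477 tested genes. DESeq2 called 0 collagens, where it called 0.131% of all genes. The median log2FC of the fibrillar collagens between LS and Ctrl was 0.47, and it was -0.05 without AL9, a mouse of neither group. AL9 enters this comparison through the run term, which is estimated from AL and Ctrl mice because all LS mice were in the first run.

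When AL9 was left out, the fibrillar median of AL against Ctrl fell to -0.08, that of the FACIT collagens to 0.04 and that of the others to -0.09, and the basement membrane median stayed at -0.17. The number of collagens with a log2FC above 0 went from 26 of 34 to 11 of 34. Over all tested genes it went from 7470 of 14477 to 7584 of 14413. Col1a1 then had a log2FC of 0.02 (SE 0.188), Col1a2 of -0.04 (SE 0.174) and Col3a1 of -0.21 (SE 0.218). With all mice the SE of these genes was 0.506, 0.398 and 0.61. Against Ctrl, 5 collagens were called, where 6.74% of all tested genes were. Col20a1 (log2FC 1.23), Col9a3 (1.28) and Col25a1 (-1.59) were called as with all mice. Col27a1 was no longer called, and Col6a6 (-0.71, FDR = 0.0325) and the type V chain Col5a3 (-0.58, FDR = 0.0397) were called lower.

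Col5a3 (ENSMUSG00000004098, chromosome 9, 20770050 to 20815067) had 70.7 CPM in AL9 and 9.27 to 17.3 CPM in the other 8 AL mice. LS mice had 19.8, 23.1, 26.7 and 19.5 CPM, and Ctrl mice 10.4 to 29.3 CPM (median 15.8). The other 8 AL mice all lay below all LS mice and overlapped Ctrl2 and the Ctrl mice of the second run, and AL9 lay above every mouse. With all mice the log2FC was 0.04 (SE 0.365, FDR = 0.957) against Ctrl and -0.45 (SE 0.442, FDR = 0.492) against LS mice. Without AL9 it was -0.70 (SE 0.215, FDR = 0.023) against LS mice. In that comparison Col20a1 (1.10), Col9a3 (1.21), Col11a2 (1.32) and Col6a6 (-1.01) were also called, where 9.96% of all tested genes were.

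**Figure D4:**
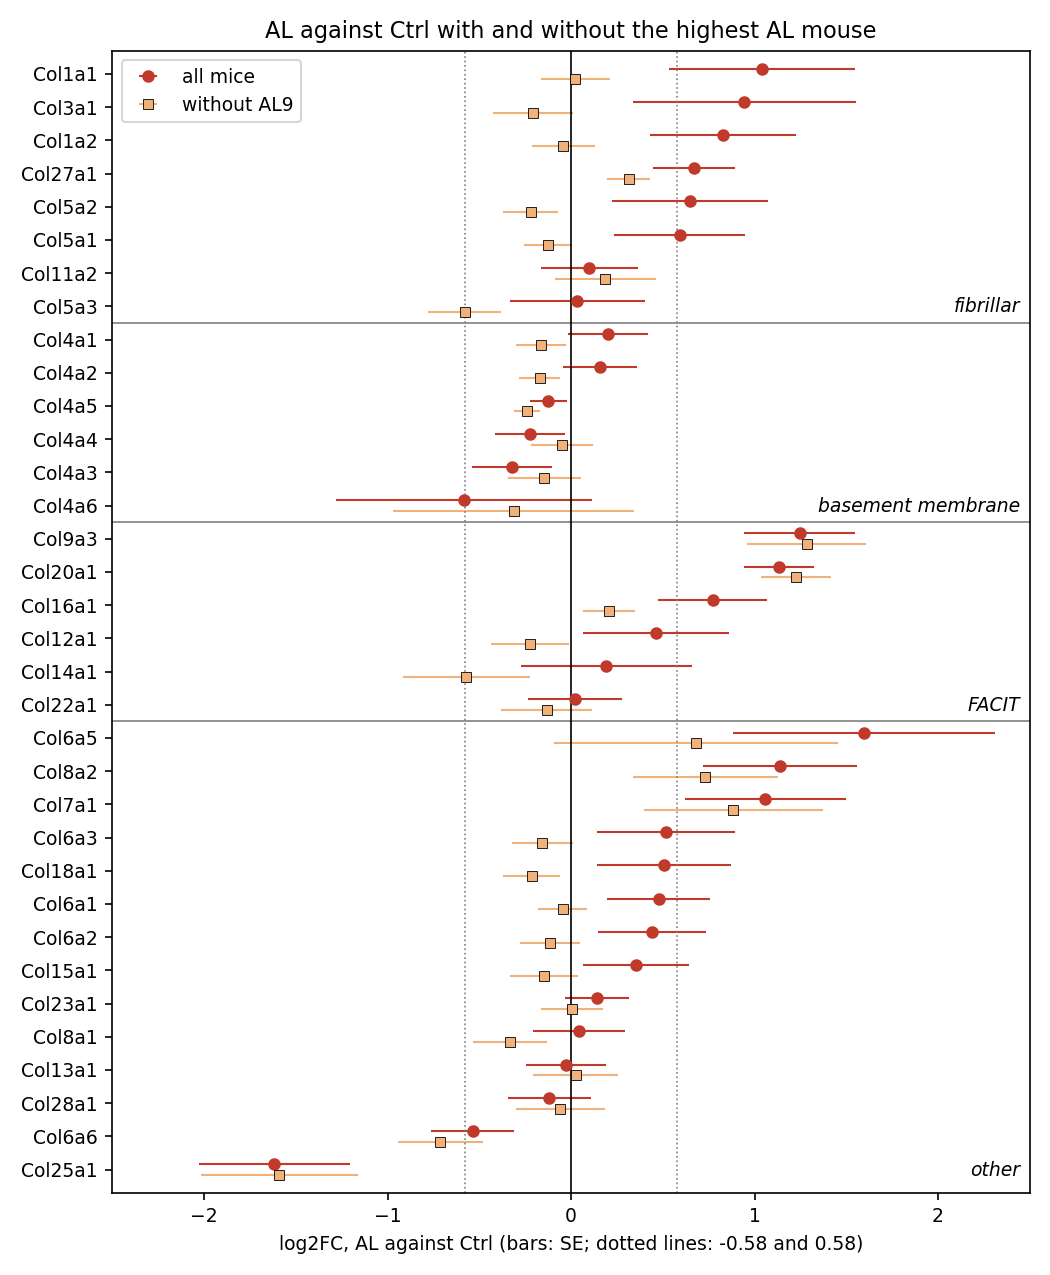
Log2FC of AL against Ctrl for each tested collagen, by class, with all mice (circles) and without AL9 (squares), where bars are SE and dotted lines mark -0.58 and 0.58. Col1a1, at 1.04 with and 0.02 without AL9, and other fibril chains move toward 0, and Col20a1, Col9a3 and Col25a1 move little.

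The first run alone (7 AL, 4 LS and 4 Ctrl mice) holds neither AL9 nor AL8. Against Ctrl it called Col20a1 (log2FC 1.2, FDR = 0.003), Col9a3 (1.37, FDR = 0.0138), Col25a1 (-1.75, FDR = 0.00573) and Col5a3 (-0.65, FDR = 0.0478), where 7.82% of genes were called. Col1a1 had a log2FC of 0.12 (FDR = 0.682), Col1a2 of 0.17 (FDR = 0.378) and Col3a1 of -0.17 (FDR = 0.645) there. Against LS it called 7 collagens, where 11.5% of genes were called, adding Col8a2 (1.19, FDR = 0.0134), Col25a1 (-1.2, FDR = 0.0287) and Col5a3 (-0.73, FDR = 0.0256) to the 4 called with all mice. Between LS and Ctrl it called 0, where 0.021% of genes were called.

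The second run alone holds 2 AL and 3 Ctrl mice. In it edgeR called 0 of the 31 collagens tested, where 0.128% of genes were called. An unadjusted p under 0.05 was found for 15 of these collagens and for 1762 of all 12496 genes tested there. The fit of all 20 mice by group and run takes the spread from every group, and for the same 5 mice it called 12 collagens higher and 2 lower of 34, where 8.47% of all genes were called. They included 7 of the 8 fibrillar collagens, all higher, with a log2FC of 3.23 for Col1a1 (FDR = 0.00769) and 2.30 for Col1a2 (FDR = 0.019). The 2 lower were Col4a3 (-1.23, FDR = 0.029) and Col4a4 (-1.09, FDR = 0.0218). For some of the higher calls AL8 and AL9 lay on opposite sides of Ctrl5-7. Col1a2 had 38.5 CPM in AL8 and 713 CPM in AL9, against at least 59.9 CPM in Ctrl5-7. Col3a1 had 72.5 CPM in AL8 and 2465 CPM in AL9, against at least 77.7 CPM in Ctrl5-7. For these genes the higher call came from AL9 alone. For Col1a1 AL8 lay within the range of Ctrl5-7, and for Col27a1 both AL mice lay above it. The AL-Ctrl difference was compared between runs by the interaction of group and run. Of the collagens Col3a1 alone passed an FDR of 0.05, as 1.49% of all tested genes did, with a log2FC of -0.17 in the first run, 3.73 in the second (SE 0.767, FDR = 0.0072) and a difference of 3.90 between them (SE 0.893, FDR = 0.0387). The difference for Col1a1 was 3.12 (FDR = 0.0566). The number of collagens that passed was 0 without AL9 (65 of all 14413 genes), 21 without AL8 (2308 of 14438), 0 without Ctrl5 (72 of 14456), 0 without Ctrl6 (96 of 14441) and 1, Col4a4, without Ctrl7 (284 of 14430). With 1 AL mouse left in the second run, the spread of that mouse is taken from the other groups.

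Ctrl mice also differed by run. Col7a1 (log2FC 1.93, FDR = 0.0389) and Col28a1 (0.99, FDR = 0.0213) were higher and Col15a1 lower (-1.19, FDR = 0.0378) in Ctrl5-7 than in Ctrl1-4, where 14.7% of all tested genes were called. The runs differed in depth, and 3 of the 4 Ctrl mice of the first run had female-type expression of Xist while those of the second had none. Ctrl4, the male-type Ctrl mouse of the first run, had 0.31 CPM of Col7a1, 1.06 CPM of Col28a1 and 62.4 CPM of Col15a1. Ctrl5-7 had 1.57, 1.89 and 0.61 CPM of Col7a1, 1.87, 2.29 and 1.84 CPM of Col28a1, and 44.7, 36.5 and 34.5 CPM of Col15a1. The part of sex type in this difference was not tested.

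Col14a1, a FACIT on fibrils of interstitial tissue, followed sex type, which was seen in the values and then tested. In the first run, the 8 mice with at least 10 CPM of Xist (Ctrl1-3, LS2, LS3 and AL2-4) had 37.4 to 51.1 CPM of Col14a1. The 7 mice without had 12.9 to 23.3 CPM, so the types did not overlap. The log2FC of female-type against male-type mice was 1.33 (SE 0.116, FDR = 2.91e-05) within the first run. It was the 1 collagen called there, where 0.336% of tested genes were called. It was 1.28 (FDR = 0.000231) without AL9, where 0.278% of genes were called, and 1.5 (FDR = 0.162) with all 20 mice, where 0 collagens and 0.138% of genes were called. The 5 mice of the second run, all male-type, had 6.64 to 97.9 CPM, with AL9 highest.

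Chains that share a trimer or a fibril were compared by the correlation of their log2 CPM across the 20 mice, after the mean of each group in each run was taken off. Of 10 planned pairs 9 could be tested, and p-values are from 100000 permutations, adjusted by the Benjamini-Hochberg method over the 9 pairs. AL8 and AL9 were the only AL mice of the second run, so their centred values were equal and opposite. The difference between them thus enters r through both mice. Centring also ties the values within each group and run. The 20 values are therefore not independent, which limits how the permutation p can be read. Col4a1 and Col4a2 had Pearson's r = 0.978 and Spearman's rho = 0.922, and r = 0.938 without AL8 and AL9, the 2 mice farthest out. Col6a1 had r = 0.983 (rho = 0.935) with Col6a2 and r = 0.986 (rho = 0.982) with Col6a3, and 0.927 and 0.947 without those mice. The permutation p of each was 2e-05, the smallest these permutations can give, and 2.57e-05 after adjustment. Col1a1 had r = 0.976 (rho = 0.862) with Col1a2, 0.836 without AL8 and AL9 and 0.778 in the first run alone. With Col3a1 it had r = 0.965 (rho = 0.794), 0.791 without these mice and 0.791 in the first run. Col5a1 and Col5a2 had r = 0.963 (rho = 0.827), 0.724 without AL8 and AL9 and 0.693 in the first run. The adjusted permutation p of these 3 pairs was 2.57e-05 as well.

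Col4a3 and Col4a4, also head to head, had r = 0.804 and rho = 0.836, with 0.710 without Ctrl1 and Ctrl6 and 0.682 in the first run. Col8a1 and Col8a2 had r = 0.354 and rho = 0.0481 (adjusted permutation p = 0.126). Col4a5 and Col4a6 had r = -0.408 and rho = -0.432 (adjusted permutation p = 0.0774). Col4a6 had 0 counts in AL7, AL9 and Ctrl5 under its first gene entry, and in AL7 0.952 CPM under its second, so the assignment of reads between entries is part of this value. The second run, with 5 mice, is too small for a correlation.

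Per kb of exon, Col1a1 was 0.808 to 1.43 times the level of Col1a2 in the 19 other mice (median 1.08) and 1.84 times in AL9. The lengths used were 6563 bp for Col1a1 and 12426 bp for Col1a2. The size of this ratio depends on them, while its comparison between mice does not. Col4a1 was 1.27 times the level of Col4a2 in AL9 and 1.09 to 1.53 times in the other mice. AL9 thus departed from the other mice in the ratio of the type I chains and not in that of the type IV chains.

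**Figure D5:**
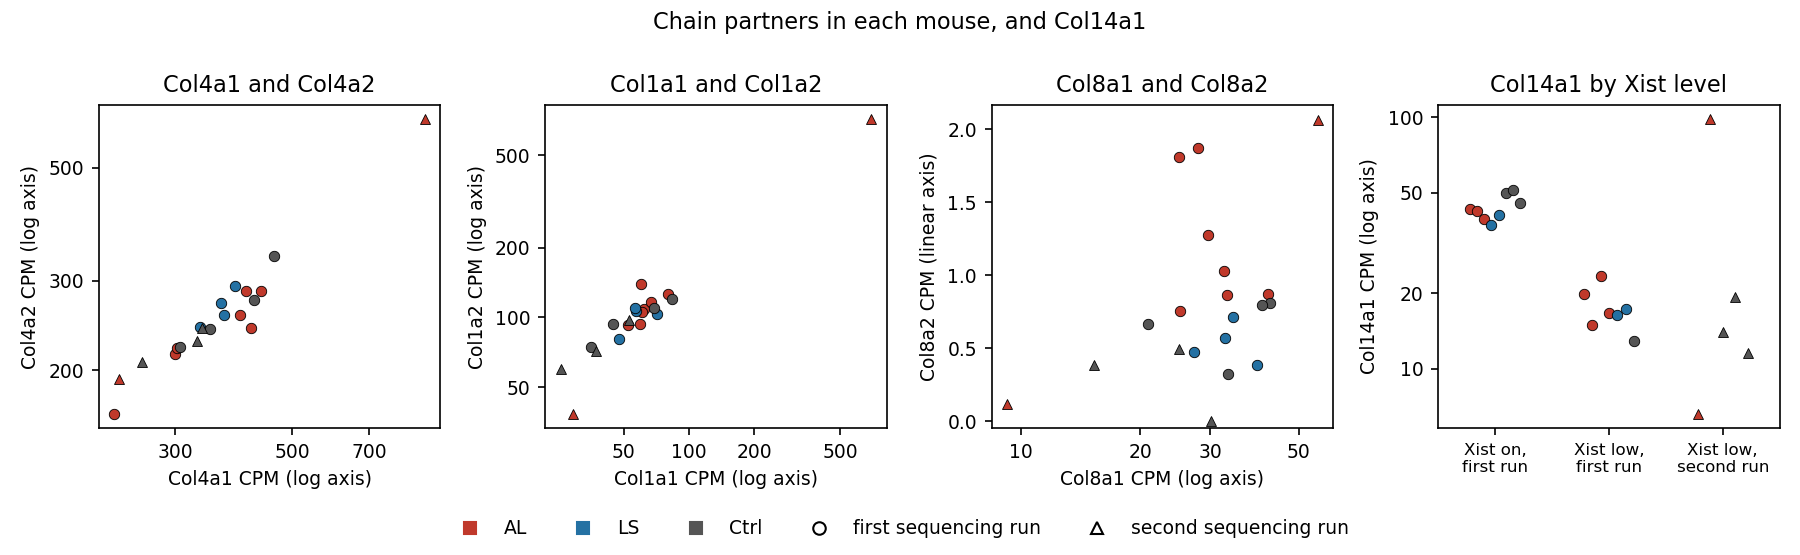
CPM of partner chains against each other and of Col14a1 by Xist level (log axes, except the linear axis of Col8a2), where each point is 1 mouse coloured by group and triangles mark the second sequencing run. Col4a1 and Col4a2 lie along a narrow band (r = 0.978), AL9 lies apart at the top right, Col8a2 is scattered against Col8a1 (r = 0.354), and Col14a1 lies at 37.4 to 51.1 CPM where Xist is on.

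The enzymes and partners of collagens were read from 5 lists, chosen for their function. Against Ctrl, 0 of 18 genes for chain modification and folding were called, with a median log2FC of 0.12. The 2 largest values were -0.80 for P4ha3, a prolyl hydroxylase chain (FDR = 0.359), and 0.45 for P3h3 (FDR = 0.12). Of 15 tested genes for propeptide cleavage and crosslinking, 3 were called higher, the lysyl oxidase Loxl3 (log2FC 0.93, SE 0.265, FDR = 0.0156), the procollagen protease Adamts2 (0.84, SE 0.305, FDR = 0.0476) and the protease enhancer Pcolce (0.60, SE 0.175, FDR = 0.0164), with a list median of 0.40. Lox had the largest value, 1.04 (FDR = 0.178). Of 13 tested fibril-binding genes, Comp (1.54, SE 0.419, FDR = 0.0121), Bgn (0.82, SE 0.204, FDR = 0.007) and Sparc (0.62, SE 0.208, FDR = 0.0348) were called higher, with a median of 0.31, and Thbs1 had -1.12 (FDR = 0.338). Of 10 collagen receptors 0 were called (median 0.12), with values of 0.56 for Gp6 (FDR = 0.445) and 0.55 for Mrc2 (FDR = 0.0942). Of 9 tested genes for collagen breakdown, the macrophage elastase Mmp12 was called higher (4.64, SE 0.512, FDR = 4.15e-05; median of the list 0.72), and Mmp9 had 1.18 (FDR = 0.104).

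Loxl3 had 19.7 CPM in AL9, 2.85 to 7.76 CPM in the other AL mice and 2.59 to 4.61 CPM in LS and Ctrl mice. Bgn had 708 CPM in AL9, 175 to 466.1 CPM in the other AL mice and 154 to 299.98 CPM in LS and Ctrl mice. Mmp12 had 2.87 to 36.5 CPM in AL and 0.15 to 0.98 CPM in LS and Ctrl mice, so its groups did not overlap. In the fit of both runs without AL9 no gene of the crosslinking and fibril-binding lists was called against Ctrl, with log2FC of 0.44 for Loxl3, 0.54 for Bgn and 0.79 for Comp. In the first run alone, which also lacks AL9, 3 of 13 fibril-binding genes were called higher and 1 of 15 crosslinking genes lower against Ctrl. Without AL9 Mmp12 was still called (4.45), and P4ha3 was called lower (-2.0, FDR = 0.00894). Against LS, Bgn (0.96, FDR = 0.0103), Comp (1.83, FDR = 0.0191) and Mmp12 (5.02, FDR = 0.000312) were called higher among all 5 lists. Without AL9, Bgn (0.87, FDR = 0.00347) and Comp (1.57, FDR = 0.0028) were still called against LS. In that fit 1 of 9 tested genes for collagen breakdown was also called higher, and 1 of 15 for propeptide cleavage and crosslinking lower.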

How the data were processed

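RNA of the heart apex was sequenced by the authors as stranded paired-end libraries in 2 runs, aligned to GRCm38 with STAR and quantified per gene with Salmon in an nf-core workflow. The deposited values are these estimated counts, without normalization, and 14.2% of them are not whole numbers. The estimated counts deposited by the authors were rounded here. Genes were kept by the filterByExpr function (minimum count 10 by group), and libraries were scaled by TMM and tested with glmQLFit and glmQLFTest of edgeR 4.0.16 on group and sequencing run over all 20 mice (R 4.3.3). FDR is the Benjamini-Hochberg adjusted two-sided p over all genes tested, and SE was derived from the F statistic. Run differences came from a fit of the 5 group-by-run cells. Figures and correlations used Python 3.11.15 with scipy 1.17.1 and matplotlib 3.10.9.

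Collagen genes, classes, related lists and marker lists were chosen with earlier results of these data known. Values per mouse are given for collagens called in any comparison, those whose call changed without AL9 (the AL mouse of highest fibrillar counts), Col1a1, Col1a2, Col3a1, Col4a1, Col4a2 and the 2 highest per length of each class or subclass. Of related lists, called genes and the 2 of largest absolute log2FC are given. Gene positions come from the GENCODE annotation on GRCm38 (44 of 45 entries matched), and promoter sequences from RefSeq. Alternatives were DESeq2 1.42.0, ComBat-seq (sva 3.50.0), other filters and scalings, each run, covariates, the replicate number as a block and leaving out each mouse. The tests were tested on simulated counts. The labels give 1 sample per mouse. Whether collagen protein or amyloid load followed these values was not analysed here.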

Additional observations from a re-analysis of the deposited data

Results flagged for a closer look

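Values of single mice that stood apart from the rest of their group were looked for with Dixon's test in 84 groups of mice (named collagens and class sums), and 22 were found, 18 of them in AL9. Chance gives about 1 in 20 groups, but those of AL9 come from 1 mouse over genes that moved together and sums of the same genes, so they are not independent and their number cannot be set against that share. AL9 stood apart from the other AL mice with 4508 CPM summed over fibrillar, 1595 over basement membrane, 173 over FACIT and 1023 over other collagens. Among fibrillar genes it did so for Col1a1 (694 CPM), Col1a2 (713 CPM), Col3a1 (2465 CPM), Col5a3 (70.7 CPM) and Col27a1 (27.1 CPM). In the basement membrane it did so for Col4a1 (893 CPM) and Col4a2 (623 CPM), and among FACIT collagens for Col14a1 (97.9 CPM) and Col16a1 (61.6 CPM). The others were Col6a1 (264 CPM), Col6a2 (247 CPM), Col7a1 (3.96 CPM), Col18a1 (58.6 CPM) and Col23a1 (4.91 CPM).

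The 4 values outside AL9 were LS3 with 104 CPM of Col6a1 and 635 CPM summed over fibrillar collagens, LS1 with 0.189 CPM of Col7a1, and Ctrl7 with 0.384 CPM of Col9a3. The AL-Ctrl difference of Col3a1 differed between the sequencing runs by 3.90 on the log2 scale (FDR = 0.0387, edgeR's quasi-likelihood test of the interaction), and by -0.23 (FDR = 0.912) without AL9.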

How the results depend on the processing

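Against Ctrl, 4 collagens were called, and the number (beside the share of all genes called) was 2 with at least 10 counts in every mouse (5.23%), 7 with DESeq2 (8.71%), 2 with the replicate number as a block (5.88%), 0 in the second run alone (0.128%), 11 with the liver genes as a covariate (7.65%), 1 without the 5 mice of highest Alb (3.39%), and 3 to 8 when each mouse was left out (8 without AL8, 9.25%). Against LS, also 4, it was 8 with DESeq2 (10.7%), 7 in the first run alone (11.5%), 1 without the 5 mice of highest Alb (3.19%) and 3 to 5 when each mouse was left out. The last setting named Alb, and sums over both Col4a6 entries (4 calls in each comparison), were chosen after seeing the data. The number of collagens whose difference varied between runs was 0 to 21 when each of the 5 mice of the second run was left out. The cause of these changes was not tested. Same-numbered mice did not deviate together (3 of 15 pairs over 0.1, from -0.154 to 0.231), so the numbers were not taken as pairs, and the block gave 5 calls against LS. Of calls on single genes, Col20a1 against Ctrl was lost in the second run alone, Col25a1 under the block, the liver covariate and without the Alb mice, and Col27a1 under ComBat-seq (FDR = 0.222), without the run term, in each run alone, under the block and without the Alb mice. Against LS, Col9a3 was lost under ComBat-seq (FDR = 0.0915) and Col11a2 under the block (FDR = 0.0587). Against Ctrl, Col7a1, Col8a2 and Col16a1 were gained with DESeq2, Col8a2 with Xist as a covariate, and Col1a1, Col1a2, Col3a1, Col5a1, Col5a2, Col6a3, Col12a1 and Col16a1 with the liver covariate. The correlation of Col8a1 and Col8a2 was -0.125 in the first run and -0.355 without AL8 and AL9. Small log2FC against Ctrl changed sign. In the first run alone they were -0.48 for Col14a1, -0.049 for Col15a1, -0.12 for Col18a1, 0.13 for Col28a1, -0.17 for Col3a1, -0.11 for Col4a1, -0.17 for Col4a2, -0.65 for Col5a3 and -0.15 for Col8a1. Under the replicate block they were -0.070 for Col14a1, -0.21 for Col4a1, -0.29 for Col4a2, -0.50 for Col5a3 and -0.084 for Col8a1. Col11a2 had -0.00936 without the run term, -0.047 with Xist as a covariate and -0.27 without the Alb mice. Col13a1 had 0.041 in the second run, 0.023 with Xist and 0.0012 with the liver covariate, Col8a1 had -0.055 under ComBat-seq, and Col5a3 against LS had 0.070 with the liver covariate. When each mouse was left out, log2FC ran from -0.058 to 0.38 for Col11a2, -0.13 to 0.20 for Col13a1, -0.57 to 0.37 for Col14a1, -0.15 to 0.54 for Col15a1, -0.22 to 0.65 for Col18a1, -0.041 to 0.98 for Col1a2, -0.27 to 0.0023 for Col28a1 and -0.21 to 1.2 for Col3a1. It ran from -0.16 to 0.30 for Col4a1, -0.17 to 0.28 for Col4a2, -0.58 to 0.26 for Col5a3, -0.046 to 0.62 for Col6a1, -0.11 to 0.59 for Col6a2 and -0.33 to 0.18 for Col8a1. Of the values tried, 979 for single genes and class medians and 109 for counts and correlations were taken as unchanged. For single genes and correlations this meant the same direction and side of the threshold. A class median was taken as unchanged when its shift was below the SD of the class over AL mice. A count was taken so when it was close to the main count, so an unchanged count could hide a changed set of genes. Among single genes, 24 values lost and 17 gained a call. Depth limits the low genes most, since in the second run 3 counts are up to 0.356 CPM.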
